A study of Mus musculus with 22 samples.

Results

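The collagen chain genes are the genes whose name in the deposited normalized table is Col, a number, the letter a and a number. It found 40 of the 34378 entries of that table, 11 fibrillar, 6 of basement membranes, 9 of the FACIT class (fibril-associated collagens with interrupted triple helices) and 14 others. RNA of cardiac fibroblasts (CF) from CD1 mice was hybridised to Agilent 1-colour 8x60K arrays. All cells had the genotype aMHC-GFP, a green fluorescent reporter under the promoter of a cardiac myosin heavy chain gene. Untransduced fibroblasts were sampled at day 0, and cultures that received a retrovirus with lacZ or with MGT at days 3, 5, 7, 10 and 14. MGT is a polycistronic transgene of Mef2c, Gata4 and Tbx5, the cardiac transcription factors used to turn fibroblasts into induced cardiomyocytes, and lacZ encodes a bacterial enzyme and served as the control. Each of the 11 groups had 2 arrays. The labels name no sorting step, so each sample is taken here as a whole culture, in which fewer cells of a type and less RNA per cell cannot be told apart.

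Collagens are the main proteins of the extracellular matrix. Each molecule is a triple helix of alpha chains, and each chain has its own gene. Fibrillar collagens (such as types I, II, III and V) build the fibres of connective tissue, with type I and type III the main forms in the heart interstitium. Type IV collagens form the network of basement membranes, FACIT collagens sit on the surface of fibrils, and the remaining types form beaded filaments, anchoring fibrils, short-chain networks or transmembrane proteins. Cardiac fibroblasts are a main source of this matrix in the heart.

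Levels are log2 of the scanner's processed signal relative to the 75th percentile of that array, and a difference is one of log2 levels, given with its standard error (SE) from a limma fit of 11 group means. Adjusted p-values are Benjamini-Hochberg values of that model over all 18062 genes tested, with a threshold of 0.05. A gene passed as measured when some group had its probe well above background on both arrays. Of the 40 collagen genes, 39 passed, 24 of them above background on all 22 arrays and 15 on fewer. Col9a3 was above background on 2 arrays and was not measured. The share of spots above background ran from 48.4% on the second day 14 lacZ array to 71.0% on the first day 14 MGT array. The same lacZ array had the lowest 75th percentile of signal, 729, against 1285 to 2124 on the other arrays. No statement in the labels says that the arrays of a group came from different animals or cultures, so a p-value measures no more than the scatter of these samples, possibly a technical one, and 2 arrays a group limit the precision. Days 3 and 5 shared slide 1, and days 7 and 10 shared slide 2. Day 0 and day 14 lacZ lay on slide 3 and day 14 MGT on slide 4, so at day 14 vector and slide cannot be told apart.

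The labels were checked against genes outside the collagen family. Mef2c was 4.21 (SE 0.23, adjusted p = 2.41e-09) higher with MGT, on average over the 5 days. All 8 fibroblast markers, among them Pdgfra, Dcn and Lum, were above background in every group. Against lacZ, 7 of the 8 were lower with MGT (median of the list -0.96), and 7 of 7 cardiomyocyte markers were higher (median 6.996). The summed level of the fibroblast markers was 8.40 to 8.56 in the day 14 lacZ arrays and 7.29 to 7.32 in the day 14 MGT arrays. That of the cardiomyocyte markers was 3.65 to 3.81 and 9.66 to 9.74. The markers differed along with the vector, and their part in the collagen differences was not tested.

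Averaged over days 3 to 14, 15 of the 39 measured collagen genes were higher with MGT than with lacZ and 20 were lower, each by limma with an adjusted p under 0.05. Where vectors are compared, rose or fell means higher or lower with MGT than with lacZ, whatever the direction from day 0. Over all genes tested, 23.2% were called higher and 40.7% lower, so being called was common in this comparison. The median difference of the collagen genes was -0.12, beside -0.09 over all genes tested. The size of the differences was wider than this median shows. A log2 difference of at least 1 was found for 11 higher and 8 lower collagen genes, where 6.04% and 4.96% of all genes passed the same rule. By class, 8 of 11 fibrillar genes fell and 2 rose (median -0.41), while 4 of 6 basement membrane genes rose and 2 fell (median 0.39). The latter 2 were Col4a1 (-0.14) and Col4a2 (-0.12), which turned with quantile normalization and with the deposited table. Of the 8 measured FACIT genes 4 rose and 4 fell (median 0.14), and of the 14 others 5 rose and 6 fell (median -0.08). Col8a2 is counted among these 6, though its second probe and the deposited table gave a rise. The calls differed in how well the genes were seen. Of the 15 that rose, 9 were above background on fewer than 22 arrays, while 18 of the 20 that fell were above background on all 22. A gene that passed as measured only through its MGT arrays, or only through its lacZ arrays, had to differ, so the counts are a description of the measured genes. Within slide 1 (mean of days 3 and 5) 11 rose and 14 fell, where 18.3% and 27.6% of all genes were called, and within slide 2 (mean of days 7 and 10) 16 rose and 16 fell, beside 18.9% and 31.3%. Of 33 called genes (each called fibrillar or basement membrane gene, and the called others with a difference of at least 0.5), 24 kept direction and call within both slides, and Col1a1, Col1a2, Col2a1, Col4a1, Col4a2, Col5a2, Col13a1, Col15a1 and Col28a1 did not.

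The size of a difference depended on the background step for dim genes. With normexp background correction, which adds an offset of 50 to every signal, the averaged value was 1.06 for Col2a1, 0.94 for Col6a6, -0.89 for Col9a1, 0.45 for Col13a1, 0.55 for Col15a1, 0.52 for Col19a1, 0.31 for Col20a1, 0.75 for Col24a1 and -0.54 for Col28a1, each still past the threshold. The deposited table, whose making is stated only as limma, gave 3.29 for Col10a1, -0.66 for Col9a1 and -0.93 for Col28a1.

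**Figure D1:**
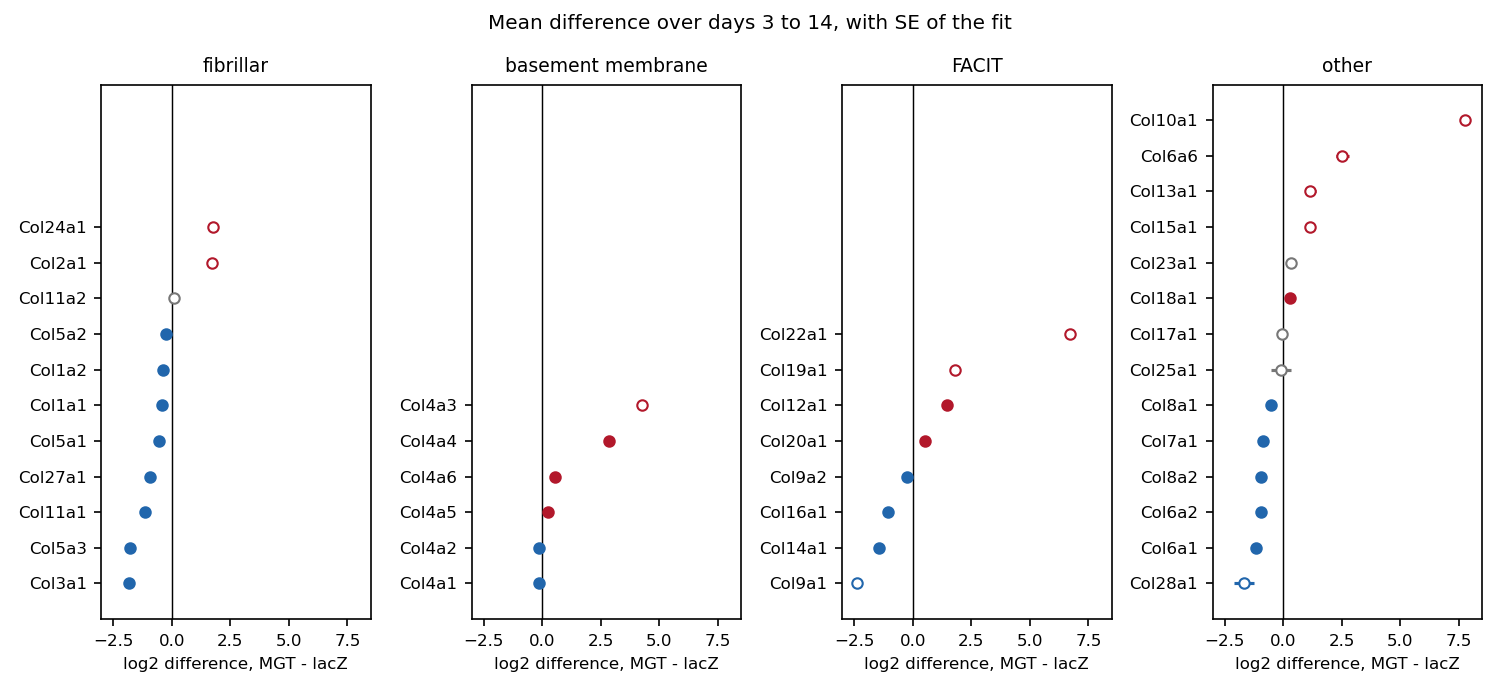
Mean log2 difference between MGT and lacZ over days 3 to 14 for each measured collagen gene, 1 panel per class, with bars for the standard error of the limma fit (10 arrays against 10). Red points passed as higher, blue as lower and grey did not pass; open points mark genes above background on fewer than 22 arrays, and the points farthest right are Col10a1 (7.77), Col22a1 (6.73) and Col4a3 (4.24).

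In 5 genes every MGT array from day 3 to day 14 lay above every lacZ array: Col4a3, Col4a4, Col10a1, Col12a1 and Col22a1. In 8 genes every MGT array lay below every lacZ array: Col1a2, Col3a1, Col5a1, Col5a3, Col9a1, Col11a1, Col14a1 and Col16a1, the last with 9 lacZ arrays because 1 spot was left out as an outlier. Among all genes with a value on every array, 5.0% and 3.76% showed these patterns.

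**Figure D2:**
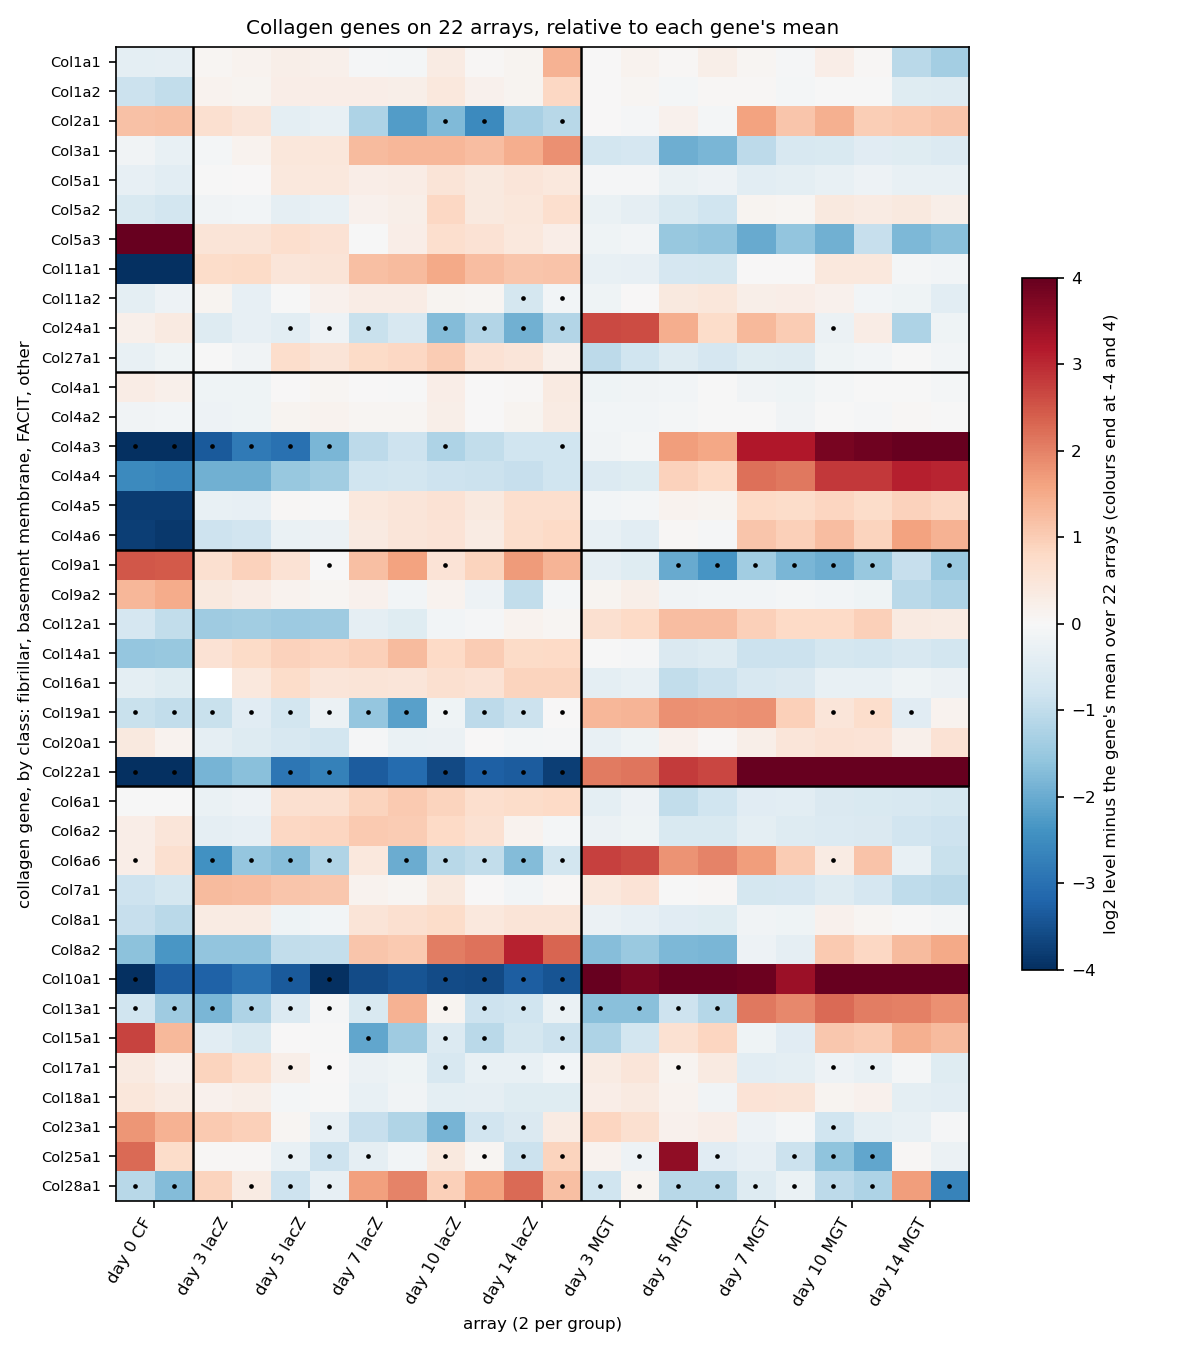
Log2 level of each of the 39 measured collagen genes on each of the 22 arrays, minus that gene's mean over the arrays, with genes in rows by class and arrays in columns by group (red above the mean, blue below, colours end at -4 and 4). Dots mark values not well above background and the white cell is the Col16a1 spot left out; Col10a1 and Col22a1 turn from blue in the lacZ columns to red in the MGT columns, and in the day 0 columns Col5a3 is at its highest and Col11a1 at its lowest.

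The basement membrane class split into pairs that share a chromosome locus. Col4a1 and Col4a2 encode the chains of the common type IV network, Col4a3 and Col4a4 chains of the specialised network of the glomerular and some other basement membranes, and Col4a5 and Col4a6 chains of further networks, Col4a5 being shared with Col4a3 and Col4a4. The 2 genes of each pair are neighbours in the RefSeq table (GRCm38.p6).

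Col4a3 gave the largest difference of the class. With lacZ it read -6.41 and -5.87 (day 3), -6.03 and -4.87 (day 5), -4.08 and -3.86 (day 7), -4.25 and -4.02 (day 10), -3.82 and -3.83 (day 14), with 6 of these 10 arrays not well above background. With MGT it read -3.18 and -3.13 (day 3), -1.37 and -1.50 (day 5), 0.17 and 0.18 (day 7), 0.75 and 0.87 (day 10), 1.33 and 1.27 (day 14), all above background. On each later day both MGT arrays were above those of the day before, and they never met the lacZ arrays. At day 0 both arrays were below background (-7.22 and -7.86). On days 3, 5, 7, 10 and 14 the difference was 2.99, 4.01, 4.15, 4.95 and 5.12, by day in that order, and 4.24 (SE 0.13, adjusted p = 6.85e-12) on average. Where no lacZ array was above background only a bound can be given, the MGT mean against the higher of the dim probe and the lowest signal well above background. By that bound Col4a3 was at least 6.94-fold higher with MGT at day 3 and at least 8.74-fold at day 5. Within slides 1 and 2 the averaged difference was 3.50 and 4.55. The probe lies on chromosome 1 from 82717775 to 82717834 (mm9).

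Col4a4, its neighbour, was above background on all 22 arrays. The lacZ arrays read -2.90 and -2.90 (day 3), -2.51 and -2.39 (day 5), -1.80 and -1.74 (day 7), -1.81 and -1.84 (day 10), -1.90 and -1.77 (day 14). The MGT arrays read -1.54 and -1.47 (day 3), -0.07 and -0.18 (day 5), 1.21 and 1.14 (day 7), 1.84 and 1.83 (day 10), 2.11 and 2.07 (day 14), and the day 0 arrays read -3.53 and -3.61. Both vectors rose from the day 0 level, and the MGT arrays lay above the lacZ arrays on each day. The difference was 1.40, 2.33, 2.94, 3.66 and 3.93, by day in that order, with an average of 2.85 (SE 0.03, adjusted p = 1.67e-16). It was 1.86 within slide 1 and 3.30 within slide 2. The other 2 probes of the gene gave 3.04 and 3.25. The probe used lies on chromosome 1 from 82447879 to 82447938 (mm9).

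Col4a5 and Col4a6 differed little by vector and much between day 0 and the transduced cultures. Col4a5 read 0.02 and 0.01 at day 0, from 3.48 to 4.49, with a median of 4.21, on the 10 lacZ arrays, and from 3.72 to 4.74, with a median of 4.56, on the 10 MGT arrays. Col4a6 read -2.11 and -2.21 at day 0, from 0.83 to 2.43, with a median of 1.98, with lacZ and from 1.23 to 3.24, with a median of 2.57, with MGT. Every transduced array of both genes was above both day 0 arrays. The lacZ cultures were already 3.48 and 3.02 above day 0 at day 3, where virus, time and slide cannot be told apart. The averaged difference between vectors was 0.24 (SE 0.03, adjusted p = 1.18e-05) for Col4a5 and 0.53 (SE 0.05, adjusted p = 9.07e-07) for Col4a6. A second Col4a6 probe, above background on all 22 arrays, gave 0.35 on average. At day 14 that probe gave 0.05 (adjusted p over probes = 0.852), where the probe used gave 0.75. Leaving out 1 array raised the day 3 adjusted p to as much as 0.112 for Col4a5 and 0.0929 for Col4a6.

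Col4a1 and Col4a2, the genes of the common network, hardly differed between vectors. Col4a1 ranged from 6.09 to 6.62, with a median of 6.28, with lacZ and from 6.08 to 6.26, with a median of 6.17, with MGT, and Col4a2 ranged from 5.83 to 6.34, with a median of 6.11, with lacZ and from 5.90 to 6.05, with a median of 5.99, with MGT. The averaged differences were -0.14 (SE 0.04, adjusted p = 0.0121) and -0.12 (SE 0.04, adjusted p = 0.00776), but quantile normalization gave 0.060 and 0.058 and the deposited values gave 0.044 and 0.044, with no call, and within slide 1 -0.049 and -0.049, so no direction is given for either gene. The median of all genes was -0.09 in the same comparison.

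**Figure D3:**
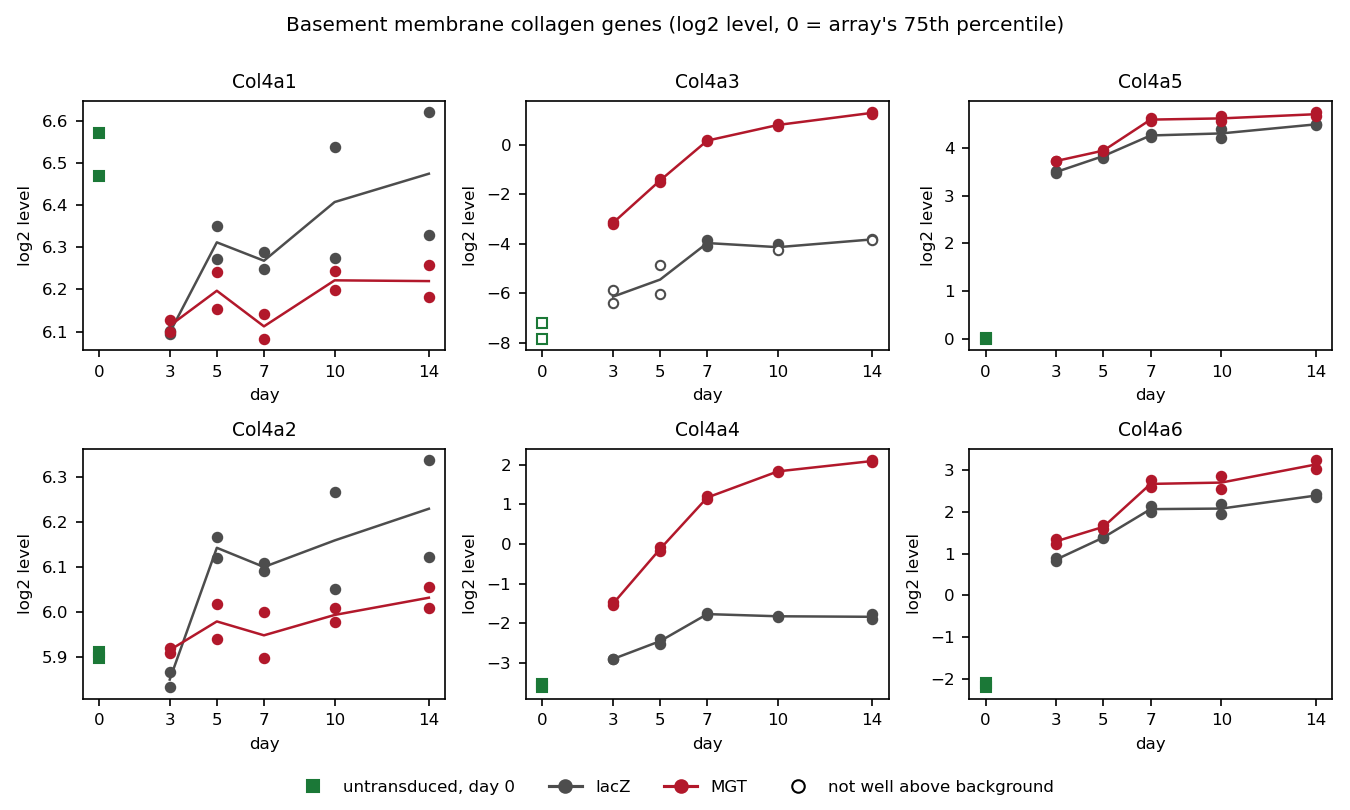
Log2 level of the 6 type IV collagen genes by day, 1 panel per gene with its own vertical axis, relative to the 75th percentile of each array. Points are single arrays (2 per group; open points are not well above background), lines join group means, grey is lacZ, red is MGT and green squares are untransduced cells at day 0; Col4a3 and Col4a4 separate by vector, whereas Col4a5 and Col4a6 rise in both vectors after day 0.

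Promoter windows were read for every collagen gene that had one, and some are printed. Some neighbouring type IV genes start close to each other, while the distance between the Col4a3 and Col4a4 starts was not measured. RefSeq windows (GRCm38.p6, 250 bases before to 50 after an annotated start) were at hand for 32 of the 40 genes. Col1a1, Col2a1, Col4a3, Col5a2, Col9a3, Col12a1, Col14a1 and Col22a1 had none. The annotated starts of Col4a1 and Col4a2 lie 21 bases apart on opposite strands, so the Col4a2 window below (chromosome 8, 11312555 to 11312854, plus strand) also covers the Col4a1 start. Those of Col4a6 and Col4a5 lie 1343 bases apart. The second sequence is the Col4a4 window (chromosome 1, 82586800 to 82587099, minus strand), the gene of the class that differed most among those seen on all arrays. Both are written 5′ to 3′ with motif matches in capitals, and the match in the Col4a2 window is CCAAT.

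Col4a2: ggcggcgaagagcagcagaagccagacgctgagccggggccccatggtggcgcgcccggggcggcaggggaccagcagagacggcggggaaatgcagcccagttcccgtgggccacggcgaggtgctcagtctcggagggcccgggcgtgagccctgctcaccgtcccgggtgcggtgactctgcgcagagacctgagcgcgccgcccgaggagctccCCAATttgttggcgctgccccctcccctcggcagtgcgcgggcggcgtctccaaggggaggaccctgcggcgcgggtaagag
Col4a4: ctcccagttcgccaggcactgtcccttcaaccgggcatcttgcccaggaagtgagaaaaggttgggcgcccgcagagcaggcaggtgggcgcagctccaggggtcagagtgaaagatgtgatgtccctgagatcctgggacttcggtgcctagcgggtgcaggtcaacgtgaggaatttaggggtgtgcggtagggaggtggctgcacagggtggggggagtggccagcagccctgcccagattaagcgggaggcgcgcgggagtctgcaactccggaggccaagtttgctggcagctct

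Motifs were searched on both strands in all windows: the MEF2 site (by name), AGATAA for GATA factors, AGGTGT for T-box factors, TATAAA and CCAAT. The MEF2 site can overlap TATAAA. The Col4a4 window held none of them. Over all 32851 windows the shares with a match were 3.19%, 11.2%, 13.7%, 13.6% and 37.4%. Of the 35 windows of collagen genes 1, 2, 2, 5 and 12 had a match. A match is a run of letters and not a measured binding site.

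In the fibrillar class Col3a1 and Col5a3 had the largest falls, which differed by less than their errors. Col3a1, which encodes the chain of type III collagen, read 6.23 and 6.08 at day 0. Its lacZ levels were 6.31 and 6.53 (day 3), 6.83 and 6.85 (day 5), 7.66 and 7.71 (day 7), 7.73 and 7.62 (day 10), 7.85 and 8.23 (day 14). Its MGT levels were 5.66 and 5.73 (day 3), 4.44 and 4.55 (day 5), 5.35 and 5.74 (day 7), 5.77 and 5.94 (day 10), 5.91 and 5.84 (day 14). The lacZ arrays climbed above day 0 while the MGT arrays dropped to their lowest at day 5, and the vectors did not overlap on any day. The difference was -0.73, -2.34, -2.14, -1.82 and -2.16, by day in that order, and -1.84 (SE 0.06, adjusted p = 1.3e-11) on average, -1.54 within slide 1 and -1.98 within slide 2. The probe lies on chromosome 1 from 45405589 to 45405648 (mm9). The Col3a1 window (chromosome 1, 45311288 to 45311587, plus strand) follows, with TATAAA in capitals.

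Col3a1: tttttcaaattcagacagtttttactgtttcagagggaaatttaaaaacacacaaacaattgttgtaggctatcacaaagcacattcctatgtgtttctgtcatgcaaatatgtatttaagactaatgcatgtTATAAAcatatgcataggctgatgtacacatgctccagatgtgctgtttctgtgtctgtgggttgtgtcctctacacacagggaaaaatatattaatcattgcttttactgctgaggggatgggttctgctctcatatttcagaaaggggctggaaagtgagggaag

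The type I genes differed by vector mainly at day 14. Col1a1, the alpha 1 chain of type I collagen, read 6.95 and 6.98 at day 0. With lacZ it read 7.42 and 7.49 (day 3), 7.59 and 7.55 (day 5), 7.32 and 7.27 (day 7), 7.69 and 7.41 (day 10), 7.47 and 8.75 (day 14). With MGT it read 7.38 and 7.49 (day 3), 7.39 and 7.60 (day 5), 7.45 and 7.32 (day 7), 7.62 and 7.39 (day 10), 6.28 and 5.99 (day 14). From day 3 to day 10 the vectors overlapped, and at day 14 both MGT arrays were below every other array of the gene. The difference was -0.02, -0.07, 0.08, -0.04 and -1.98, by day in that order, where day 14 alone passed (adjusted p = 6.97e-05). The high day 14 lacZ value (8.75) is that of the array with the weak signal. Without that array the day 14 difference was -1.34, and with only the arrays of day 14 in the fit the adjusted p was 0.0842. The averaged call of -0.41 (adjusted p = 0.0116) rests on that day, since the mean of days 3 to 10 was -0.013 (adjusted p = 0.944). The day 14 arrays of the 2 vectors were on different slides.

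Col1a2, the alpha 2 chain, read 7.51 and 7.40 at day 0. It lay from 8.49 to 9.22, with a median of 8.64, on the lacZ arrays and from 7.87 to 8.47, with a median of 8.36, on the MGT arrays. Every MGT array was below every lacZ array, by a narrow gap. The difference was -0.07, -0.28, -0.28, -0.33 and -0.98, by day in that order, and day 14 alone passed (adjusted p = 0.000303). Without the weak lacZ array it was -0.62 (adjusted p = 0.000264), and with only the day 14 arrays the call was lost (adjusted p = 0.108). The average was -0.39 (SE 0.07, adjusted p = 0.000411), -0.18 within slide 1 (adjusted p = 0.243) and -0.31 within slide 2.

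The type V genes, whose chains start fibril assembly, were lower with MGT than with lacZ to different extents. Col5a3 read 3.17 and 2.92 at day 0. The lacZ arrays read -0.85 and -0.86 (day 3), -0.68 and -0.78 (day 5), -1.38 and -1.11 (day 7), -0.70 and -0.77 (day 10), -0.94 and -1.11 (day 14). The MGT arrays read -1.55 and -1.47 (day 3), -2.90 and -2.94 (day 5), -3.39 and -2.95 (day 7), -3.28 and -2.29 (day 10), -3.15 and -3.05 (day 14). All cultures were far below day 0, and the MGT arrays were the lowest. The averaged difference was -1.78 (SE 0.11, adjusted p = 5.34e-09), -1.42 within slide 1 and -1.99 within slide 2. Col5a1 ranged from 4.62 to 5.14, with a median of 5.04, with lacZ and from 4.20 to 4.57, with a median of 4.36, with MGT, a difference of -0.57 (SE 0.03, adjusted p = 3.9e-10) without overlap. Col5a2 differed by -0.24 (SE 0.05, adjusted p = 0.00192), a call that was lost with the deposited table (-0.11, adjusted p = 0.128) and within slide 2 (-0.19, adjusted p = 0.0899).

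Col11a1, a type XI chain that nucleates fibrils in cartilage and in other tissues, was higher in all cultures than at day 0, and less so with MGT. It read -1.27 and -1.50 at day 0. Its lacZ levels were 3.67 and 3.72 (day 3), 3.43 and 3.46 (day 5), 4.14 and 4.22 (day 7), 4.45 and 4.18 (day 10), 4.06 and 4.09 (day 14). Its MGT levels were 2.65 and 2.60 (day 3), 2.28 and 2.24 (day 5), 2.96 and 2.96 (day 7), 3.38 and 3.36 (day 10), 2.87 and 2.82 (day 14). Every culture was above day 0, and the MGT arrays were below the lacZ arrays on each day. The difference was -1.07, -1.18, -1.22, -0.94 and -1.23, by day in that order, and -1.13 (SE 0.04, adjusted p = 1.48e-11) on average. Col11a2 did not pass (0.08, adjusted p = 0.436). Col27a1, a fibrillar chain expressed in cartilage, fell by 0.94 on the log2 scale (SE 0.06, adjusted p = 2.09e-08) with MGT.

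Col2a1 and Col24a1 were the fibrillar genes called higher with MGT than with lacZ. Against day 0, fitted differences at day 14 were -0.11 (Col2a1) and -0.996 (Col24a1) with MGT, and -2.41 and -1.82 with lacZ. Col2a1, the main fibrillar chain of cartilage, read -1.91 and -1.87 at day 0. With lacZ it read -2.45 and -2.59 (day 3), -3.48 and -3.39 (day 5), -4.31 and -5.32 (day 7), -4.85 and -5.64 (day 10), -4.39 and -4.21 (day 14), with 3 arrays of days 10 and 14 not well above background. With MGT it read -3.09 and -3.14 (day 3), -2.92 and -3.15 (day 5), -1.48 and -1.99 (day 7), -1.67 and -2.11 (day 10), -2.03 and -1.97 (day 14), all above background. The MGT arrays were below lacZ at day 3 and above from day 5. The difference was -0.59, 0.40, 3.07, 3.36 and 2.30, by day in that order, past the threshold from day 7 only, with at least 10.3-fold at day 10. The average of 1.71 (SE 0.13, adjusted p = 1e-07) covers both patterns: it was -0.096 within slide 1 and 3.22 within slide 2. Col24a1, a fibrillar chain known from bone, was highest with MGT at day 3 (-2.07 and -2.09) and fell to -5.95 and -4.89 at day 14, while 7 of its 10 lacZ arrays were not well above background. Its averaged difference was 1.74 (SE 0.16, adjusted p = 4.14e-07).

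**Figure D4:**
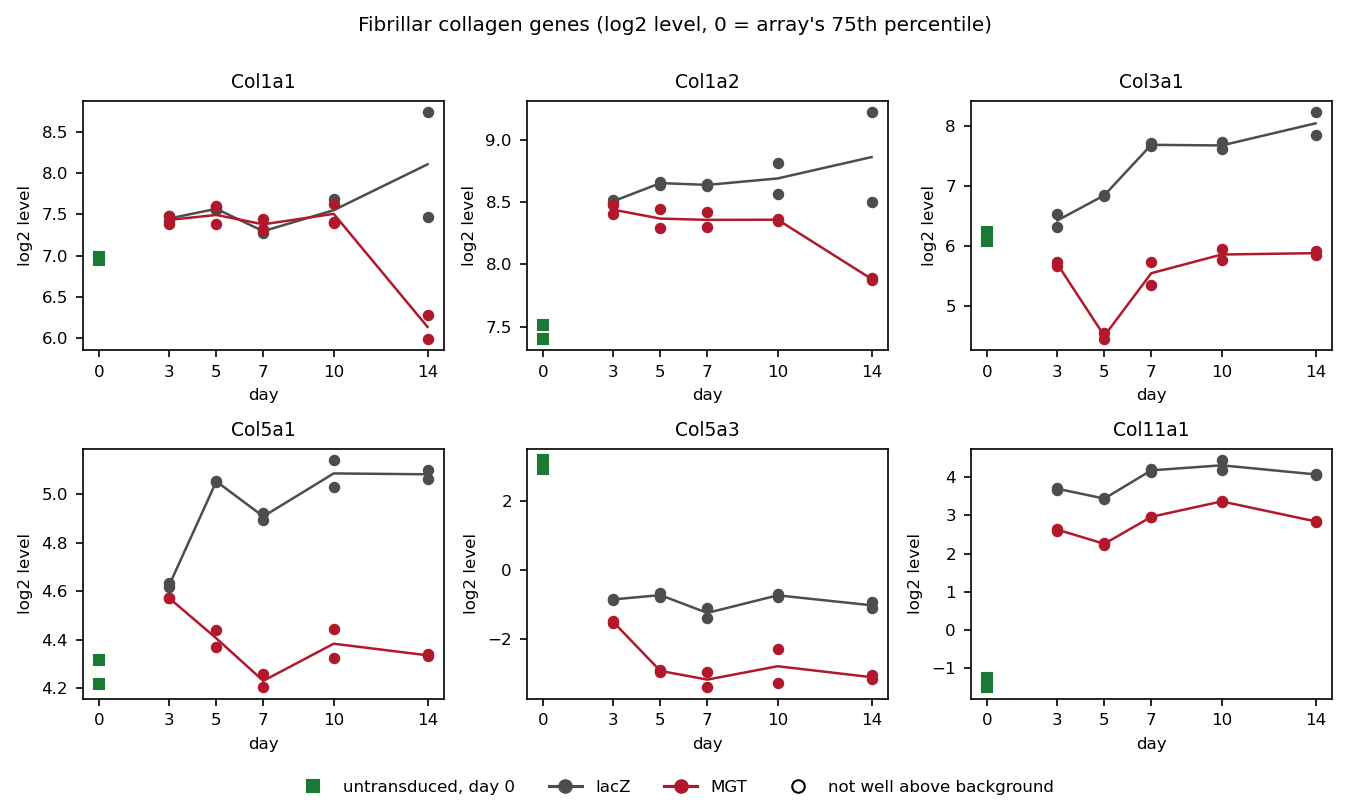
Log2 level of 6 fibrillar collagen genes by day, 1 panel per gene with its own vertical axis, relative to the 75th percentile of each array. Points are single arrays (2 per group), lines join group means, grey is lacZ, red is MGT and green squares are untransduced cells at day 0; Col1a1 separates by vector at day 14 only, whereas Col3a1, Col5a3 and Col11a1 separate on every day.

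Among the FACIT genes Col22a1, known from the junction of muscle and tendon, rose most. It was not above background at day 0 (-6.42 and -6.12). The lacZ arrays read -3.99 and -3.81 (day 3), -5.01 and -4.84 (day 5), -5.46 and -5.20 (day 7), -5.75 and -5.38 (day 10), -5.47 and -5.90 (day 14), above background on the day 3 and day 7 arrays only. The MGT arrays read -0.05 and 0.01 (day 3), 0.67 and 0.55 (day 5), 2.60 and 2.42 (day 7), 2.88 and 2.85 (day 10), 2.38 and 2.13 (day 14). The lacZ arrays were highest at day 3, while the MGT arrays climbed until day 10. The difference was 3.88, 5.54, 7.84, 8.43 and 7.94, by day in that order, and 6.73 (SE 0.07, adjusted p = 3.15e-16) on average, 4.71 within slide 1 and 8.14 within slide 2. As bounds, Col22a1 was at least 36.1-fold higher with MGT at day 5, at least 346-fold at day 10 and at least 125-fold at day 14. The probe lies on chromosome 15 from 71628906 to 71628965 (mm9).

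Col12a1, a FACIT of tendon and other dense connective tissue, rose early and converged. It read 2.09 and 1.79 at day 0. Its lacZ levels were 1.32 and 1.37 (day 3), 1.32 and 1.32 (day 5), 2.39 and 2.27 (day 7), 2.63 and 2.71 (day 10), 2.91 and 2.83 (day 14). Its MGT levels were 3.41 and 3.55 (day 3), 4.005 and 3.99 (day 5), 3.70 and 3.55 (day 7), 3.57 and 3.70 (day 10), 3.13 and 3.1 (day 14). The lacZ arrays rose from day 5 on and came close to the MGT arrays by day 14. The difference was 2.13, 2.68, 1.29, 0.96 and 0.25, by day in that order, with an average of 1.46 (SE 0.04, adjusted p = 2.59e-12). The day 14 call (adjusted p = 0.0442) was lost without any 1 of 10 arrays, the 4 of day 14 among them, with adjusted p-values up to 0.159 without the second day 14 lacZ array (0.21). Within slide 1 the averaged difference was 2.40 and within slide 2 1.13.

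Col14a1, Col16a1 and Col9a1 were lower with MGT than with lacZ. Against day 0, day 14 MGT arrays differed by 0.83 for Col14a1, 0.24 for Col16a1 and -3.68 for Col9a1. Day 14 lacZ arrays differed by 2.31, 1.32 and -0.94, genes in that order. Col14a1, which binds fibril surfaces in soft connective tissue, read 3.21 and 3.25 at day 0, from 5.32 to 6.01, with a median of 5.59, with lacZ and from 3.90 to 4.75, with a median of 4.08, with MGT, a difference of -1.44 (SE 0.04, adjusted p = 4.33e-12). Col16a1 ranged from 5.34 to 5.82, with a median of 5.50, with lacZ (9 arrays) and from 3.93 to 4.76, with a median of 4.58, with MGT, a difference of -1.08 (SE 0.04, adjusted p = 5.35e-11). Neither gene overlapped between vectors. Col9a1, a type IX chain that coats cartilage fibrils, read -2.73 and -2.74 at day 0, from -5.18 to -3.49, with a median of -4.30, with lacZ and from -7.57 to -5.58, with a median of -6.70, with MGT. With MGT 3 of the 10 arrays were above background, and with lacZ 8 were. Its difference was -2.38 (SE 0.12, adjusted p = 6.5e-10), but a second probe of the gene gave 0.02 (adjusted p over probes = 0.874), so the call holds for 1 of its 2 probes.

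Col19a1 and Col20a1, FACIT genes of low signal, were higher with MGT than with lacZ. Col19a1 was above background on 7 of 10 MGT arrays and on 0 of 10 lacZ arrays and 0 of 2 day 0 arrays. It passed as measured only through MGT arrays, so a difference was built in and its p-value adds no support. With MGT it read -4.99 and -4.95 (day 3), -4.48 and -4.504 (day 5), -4.47 and -5.37 (day 7), -5.85 and -5.62 (day 10), -6.76 and -6.18 (day 14), highest at days 3 to 7, and the fitted average was 1.81 (SE 0.17, adjusted p = 6.5e-07). As a bound it was at least 1.12-fold higher on average, and at least 1.97-fold at day 3 and at least 2.01-fold at day 7. Col20a1 differed by 0.53 (SE 0.06, adjusted p = 6.25e-06). Col9a2 was lower by a small amount (-0.25, adjusted p = 0.0327); without the second day 14 lacZ array its difference was -0.16, and without any 1 of 9 other arrays the adjusted p rose above the threshold, up to 0.0695.

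Of the remaining classes Col10a1 gave the largest fitted difference of any collagen gene on average over the 5 days, while on days 7, 10 and 14 that of Col22a1 was larger. Type X collagen is a short-chain collagen made by hypertrophic chondrocytes. At day 0 its arrays read -7.05 and -5.06, the second above background. With lacZ it read -4.99 and -4.74 (day 3), -5.12 and -5.75 (day 5), -5.33 and -5.19 (day 7), -5.32 and -5.37 (day 10), -5.04 and -5.21 (day 14), above background at days 3 and 7 only. The MGT arrays read 2.33 and 2.05 (day 3), 3.74 and 3.79 (day 5), 2.16 and 1.68 (day 7), 2.47 and 2.497 (day 10), 2.52 and 2.38 (day 14). The MGT arrays were high from the first time point and peaked at day 5, and no lacZ array came near them. The difference was 7.06, 9.20, 7.18, 7.83 and 7.58, by day in that order, and 7.77 (SE 0.20, adjusted p = 7.9e-13) on average, 8.13 within slide 1 and 7.51 within slide 2. As bounds it was at least 321-fold higher with MGT at day 5, at least 227-fold at day 10 and at least 144-fold at day 14. The probe lies on chromosome 10 from 34116831 to 34116890 (mm9).

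Of 9 chondrocyte and osteoblast markers 8 were measured, of which 3 rose and 3 fell with MGT (median -0.06, beside -0.09 over all genes). Acan rose by 4.08 (SE 0.10, adjusted p = 8.18e-13), Matn1 by 1.63 and Comp by 1.33, while Sox9, the transcription factor of cartilage, fell by 1.73 on the log2 scale. Matn1 passed as measured only through MGT groups, and Matn3, called lower, only through lacZ groups. A difference was built in for both, so their calls add no support. Sp7 and Ibsp were above background on 0 of 10 lacZ arrays and on 2 of 10 MGT arrays each. The summed level of the list was 1.86 to 1.89 with lacZ and 0.86 to 0.87 with MGT at day 3, and 0.68 to 0.73 and 1.30 to 1.42 at day 14. The part of these markers in the Col10a1 difference was not tested. The Col10a1 window (chromosome 10, 34389731 to 34390030, plus strand) is printed with its TATAAA match in capitals.

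Col10a1: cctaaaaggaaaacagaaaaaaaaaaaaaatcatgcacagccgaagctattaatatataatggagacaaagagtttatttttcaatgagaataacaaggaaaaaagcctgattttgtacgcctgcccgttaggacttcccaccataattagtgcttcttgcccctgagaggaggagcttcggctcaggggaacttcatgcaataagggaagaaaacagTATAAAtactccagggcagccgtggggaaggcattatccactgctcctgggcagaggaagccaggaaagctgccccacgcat

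The beaded filament genes of type VI, which link cells to the matrix in muscle, moved in different directions. Col6a1 read 4.502 and 4.49 at day 0. The lacZ arrays read 4.24 and 4.29 (day 3), 5.14 and 5.17 (day 5), 5.41 and 5.57 (day 7), 5.39 and 5.19 (day 10), 5.25 and 5.29 (day 14). Its MGT levels were 4.12 and 4.31 (day 3), 3.52 and 3.71 (day 5), 4.05 and 4.10 (day 7), 3.94 and 3.89 (day 10), 3.87 and 3.82 (day 14). The vectors overlapped at day 3 and were apart from day 5. The averaged difference was -1.16 (SE 0.04, adjusted p = 1.17e-11), -0.80 within slide 1 and -1.39 within slide 2. Col6a2, its neighbour on chromosome 10, fell by 0.97 (SE 0.04, adjusted p = 1.15e-10) on average. Its difference was 0.14, -1.45, -1.47, -1.27 and -0.81, by day in that order, against -0.05, -1.54, -1.41, -1.37 and -1.43, by day in that order for Col6a1.

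Col6a6 went the other way. With MGT it was above background on 9 of 10 arrays, and its levels were -2.59 and -2.68 (day 3), -3.52 and -3.34 (day 5), -3.64 and -4.29 (day 7), -4.98 and -4.19 (day 10), -5.61 and -6.21 (day 14). With lacZ it was above background on 1 of 10 arrays, the first of day 7 (-4.90). Col6a6 passed as measured only through MGT groups, so a difference was built in and its p-value adds no support. The MGT arrays fell over time toward the lacZ level. The averaged difference was 2.51 (SE 0.27, adjusted p = 2.67e-06), and a second probe gave 2.53. The bound was at least 9.96-fold at day 3 and at least 2.2-fold at day 5. The later calls were fragile. The day 7 difference (2.13) was 3.33 without the first day 7 lacZ array. It was 0.94 without the second (adjusted p = 0.183) and lost its call without the first day 7 MGT array (1.80, adjusted p = 0.103).

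**Figure D5:**
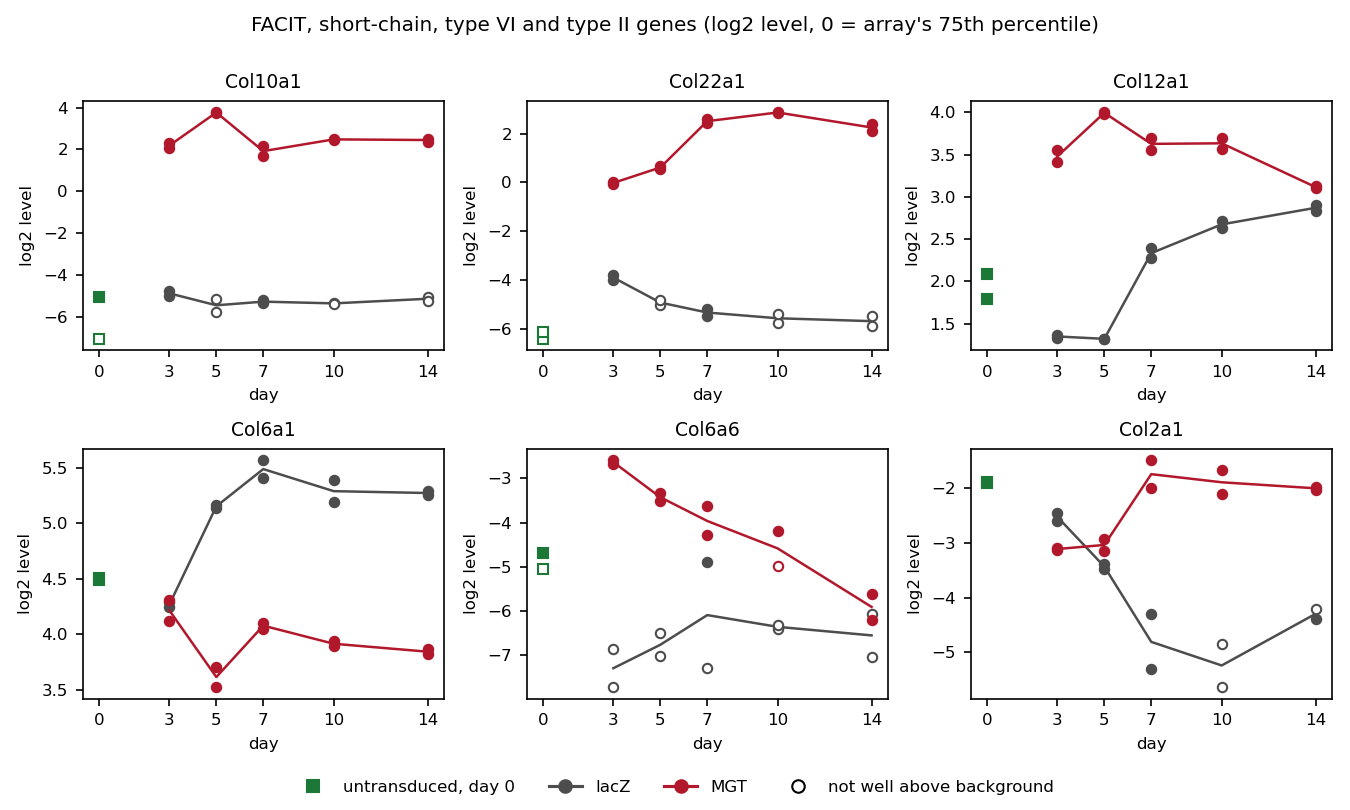
Log2 level of Col10a1, Col22a1, Col12a1, Col6a1, Col6a6 and Col2a1 by day, 1 panel per gene with its own vertical axis, relative to the 75th percentile of each array. Points are single arrays (2 per group; open points are not well above background), lines join group means, grey is lacZ, red is MGT and green squares are untransduced cells at day 0; Col10a1 and Col22a1 stay apart on every day, whereas Col12a1 and Col6a6 converge by day 14.

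Col13a1 and Col15a1 were higher with MGT than with lacZ late in the course. Col13a1, a transmembrane collagen of the neuromuscular junction, was above background on 1 of 10 lacZ arrays and on the 6 MGT arrays of days 7, 10 and 14. Those MGT arrays read -4.28 and -4.47, -4.11 and -4.36 and -4.38 and -4.58, and the difference was 2.51 at day 10 (at least 3.76-fold) and 2.44 at day 14 (at least 1.18-fold). With normexp the day 14 value was 0.23 (adjusted p = 0.38) and with array quality weights its adjusted p was 0.0623. The average of 1.15 (SE 0.23, adjusted p = 0.000551) was -0.41 within slide 1, where no array was above background, and 2.07 within slide 2. Since Col13a1 passed as measured only through MGT groups, a difference was built in and its p-value adds no support. Among the 32 collagen genes with a promoter window, Col13a1 alone had a MEF2 match, in 1 of 35 windows (2.86%), beside 3.19% over all windows. Genes without a window, Col22a1 and Col4a3 among them, could not be searched. The Col13a1 window (chromosome 10, 61979059 to 61979358, minus strand) is shown with the match and the TATAAA that overlaps it in capitals.

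Col13a1: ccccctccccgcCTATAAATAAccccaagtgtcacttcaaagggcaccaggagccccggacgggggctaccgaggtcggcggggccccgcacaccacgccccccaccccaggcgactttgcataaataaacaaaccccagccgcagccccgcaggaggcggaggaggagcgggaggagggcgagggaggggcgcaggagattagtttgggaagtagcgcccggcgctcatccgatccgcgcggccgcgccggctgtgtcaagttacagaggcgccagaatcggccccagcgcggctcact

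Col15a1, a basement membrane zone collagen of muscle and vessels, read -1.17 and -2.59 at day 0, the first being the highest of its 22 arrays. Its lacZ levels were -4.30 and -4.48 (day 3), -3.85 and -3.89 (day 5), -5.95 and -5.31 (day 7), -4.43 and -4.96 (day 10), -4.57 and -4.73 (day 14), and with MGT it read -5.12 and -4.63 (day 3), -3.26 and -3.02 (day 5), -4.04 and -4.33 (day 7), -2.81 and -2.86 (day 10), -2.45 and -2.62 (day 14). The MGT arrays were below the lacZ arrays at day 3 and above them on every later day, and the difference passed from day 7. The averaged difference was 1.13 (SE 0.16, adjusted p = 3.4e-05). It was 0.12 within slide 1 (adjusted p = 0.731) and 1.65 within slide 2, and 3 probes gave between 0.99 and 1.40. Col18a1, its relative and the source of endostatin, differed by 0.30 (SE 0.04, adjusted p = 1.33e-05), and its second probe did not pass (0.09, adjusted p over probes = 0.104).

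Col7a1, Col8a1, Col8a2 and Col28a1 passed as lower. Col7a1, the anchoring fibril collagen of skin, differed by -0.89 (SE 0.05, adjusted p = 1.97e-09), and Col8a1, a short-chain collagen of vessel walls, by -0.53 (SE 0.04, adjusted p = 9.47e-08). Both passed as lower on all 5 days. Col8a2 differed by -0.95 (SE 0.10, adjusted p = 2.56e-06) with the probe above background on all 22 arrays, while a second probe, above background on 10, gave 3.86. The deposited table gave 0.96 and the mean of both probes 1.46, so no direction is given for Col8a2. Col28a1 was above background on 5 lacZ arrays and 1 MGT array, with a fitted -1.67 (SE 0.42, adjusted p = 0.00351) that array quality weights took to an adjusted p of 0.0532. Since Col28a1 passed as measured only through lacZ groups, a difference was built in and its p-value adds no support. The fitted difference was -0.74 within slide 1 (adjusted p = 0.399). Its day 14 MGT arrays read -4.44 and -8.76. Col17a1, Col23a1 and Col25a1 did not pass, at -0.06 (adjusted p = 0.426), 0.34 (adjusted p = 0.063) and -0.10 (adjusted p = 0.854). A second Col23a1 probe, above background on 14 arrays, gave 0.43 (SE 0.14, adjusted p over probes = 0.0164).

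Counted by day, the collagen genes called were 10 higher and 8 lower on day 3, 9 higher and 14 lower on day 5, 16 higher and 13 lower on day 7, 15 higher and 13 lower on day 10 and 11 higher and 17 lower on day 14. Over all genes the shares called higher and lower were 12.3% and 18.1% (day 3), 16.2% and 21.9% (day 5), 14.9% and 22.4% (day 7), 15.2% and 24.2% (day 10), and 18.2% and 29.3% (day 14). With normexp the day 14 counts were 7 and 22, and the median of all genes at day 14 moved from -0.09 to -0.24. Genes that passed as higher on all 5 days were Col4a3, Col4a4, Col10a1, Col12a1 and Col22a1. Those that passed as lower on all 5 days were Col3a1, Col7a1, Col8a1, Col9a1, Col11a1, Col14a1, Col16a1 and Col27a1. Col9a1 is read here from 1 of 2 probes. The day 14 call of Col27a1 (-0.41, adjusted p = 0.0316) was lost without any 1 of 3 day 14 arrays, with -0.26 (adjusted p = 0.209) when the first lacZ array was left out. That of Col8a1 at day 5 was lost without the second lacZ array (adjusted p = 0.0762) or the second MGT array (adjusted p = 0.0619).

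The change of the vector difference from day 3 to day 14 was tested directly. It was higher for 6 collagen genes and lower for 14, where 12.3% and 15.3% of all genes were called. The 6 were Col22a1 (4.06), Col2a1 (2.89), Col15a1 (2.60), Col13a1 (2.58), Col4a4 (2.53) and Col4a3 (2.14). Some of these groups were below background on both arrays, namely day 14 lacZ for Col22a1, day 3 lacZ for Col4a3, and day 14 lacZ and both day 3 groups for Col13a1, so these 3 fitted changes depend on signals below background. So do those of Col6a6 and Col19a1, in the lacZ arrays of both days, and of Col24a1, in day 14 lacZ. The lowest fitted values were those of Col6a6 (-4.02), Col24a1 (-2.24) and Col1a1 (-1.96). Of the fibrillar genes 6 of 11 fell (Col1a1, Col1a2, Col3a1, Col5a1, Col5a3 and Col24a1) and 1 rose, with a median of -0.69 beside -0.03 over all genes. Of the basement membrane genes 2 of 6 rose and the other 4 did not pass. The deposited table gave 6 higher and 8 lower. Col13a1 lost its call when 1 array was left out, the second of day 3 lacZ (2.28, adjusted p = 0.0679) or the first of day 14 MGT (2.48, adjusted p = 0.0531). Col19a1, among the 14, lost its call without any 1 of 5 arrays, with -1.47 (adjusted p = 0.106) when the first of day 14 MGT was left out. With array quality weights the adjusted p was 0.077 for Col4a3, 0.0565 for Col24a1 and 0.0782 for Col13a1. With normexp it was 0.0867 for Col15a1, and with only the arrays compared 0.066 for Col1a1. Day 3 and day 14 lay on different slides.

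The lacZ cultures were then set against untransduced cells, from which they differ in the control virus and in time. At day 3, 15 collagen genes were higher than at day 0 and 10 lower, where 28.8% and 29.0% of all genes were called. Col11a1 (5.08, SE 0.08, adjusted p = 2.93e-13), Col4a5 (3.48) and Col4a6 (3.02) rose most. Col5a3 (-3.90, SE 0.24, adjusted p = 1.78e-08), Col15a1 (-2.51) and Col6a6 (-2.43) fell most, Col6a6 with at least 2.11-fold as its bound and with no call under normexp background correction (-0.55, adjusted p = 0.0704). Day 0 and day 3 lay on different slides.

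At day 14, on the same slide as day 0, 21 collagen genes were higher in lacZ cultures and 12 lower, beside 35.5% and 33.4% of all genes. With normexp the counts were 23 and 6, and the median of all genes moved from 0.06 to 0.22. Fibrillar genes rose in 7 of 11 cases (median 0.82, all genes 0.06) and basement membrane genes in 5 of 6 (median 2.73). Col11a1 (5.46, SE 0.08, adjusted p = 3.67e-14), Col8a2 (4.67, or 2.18 in the deposited table) and Col4a6 (4.55) rose most, and Col5a3 (-4.07, SE 0.24, adjusted p = 4.61e-09), Col15a1 (-2.77) and Col2a1 (-2.41) fell most. The type I and type III genes were among those that rose, with 1.14 for Col1a1, 1.40 for Col1a2 and 1.88 for Col3a1. Without the weak lacZ array the Col1a1 value was 0.51, without the other 1.78, and with only the arrays of this comparison the adjusted p was 0.134. All 6 macrophage markers passed as higher than at day 0 in the lacZ cultures, with a summed level of 4.55 to 4.69 at day 0, 7.37 to 7.84 in day 14 lacZ and 7.12 to 7.23 in day 14 MGT arrays. Of the other marker lists, 5 of 6 epicardial genes were higher and 1 lower (median 1.69), as were 5 and 1 of 7 smooth muscle and pericyte genes (median 1.64). Of 7 cardiomyocyte genes 1 was higher and 5 lower (median -3.08), and of 7 endothelial genes 1 was higher and 4 lower (median -1.63). Of 8 fibroblast genes 3 were higher and 4 lower (median -0.06), of 8 measured chondrocyte and osteoblast genes 2 and 1, and of 4 glial genes 1 and 2. The part of these markers in the day 14 differences was not tested.

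In day 14 MGT cultures 15 collagen genes were higher than at day 0 and 12 lower, beside 33.1% and 37.4% of all genes. The largest rises were in Col4a3 (at least 119-fold), Col22a1 (at least 230-fold) and Col10a1 (8.51, SE 0.44, adjusted p = 1.16e-09, above background on 1 of 2 day 0 arrays). The largest falls were in Col5a3 (-6.14, SE 0.24, adjusted p = 6.26e-11), Col9a1 (-3.68) and Col9a2 (-2.55). The type I genes went apart, with -0.84 for Col1a1 (adjusted p = 0.0162) and 0.43 for Col1a2 (adjusted p = 0.0323). Both calls were lost on leaving out single arrays of day 0 or day 14 MGT, with adjusted p-values up to 0.103 (Col1a1, without the second day 14 MGT array) and 0.135 (Col1a2, without the second day 0 array). This comparison and the lacZ comparison share the day 0 arrays.

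From day 3 to day 14, 18 collagen genes rose and 8 fell with lacZ, beside 29.3% and 27.5% of all genes, and the deposited table gave 11 and 8. With MGT 14 rose and 17 fell, beside 26.7% and 27.5%. In lacZ cultures all 6 basement membrane genes rose (0.38 to 2.32) and Col8a2 (4.28, or 1.94 in the deposited table), Col4a3 and Col3a1 (1.62) rose most of all, while Col22a1 (-1.78), Col2a1 (-1.78) and Col7a1 (-1.28) fell most. With lacZ, Col4a3 at day 3 and Col22a1 at day 14 were below background on both arrays. The fitted values of these genes depend on such signals. In MGT cultures Col4a3 (4.45) and Col4a4 (3.60) rose most among the genes above background on both days, Col13a1, below background at day 3, was at least 2.56-fold higher, and Col24a1 (-3.35), Col6a6 (-3.28) and Col5a3 (-1.59) fell most.

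The genes that fold, process and bind collagen were counted in the averaged comparison, where 23.2% of all genes were called higher and 40.7% lower (median -0.09). Of 24 genes for chain folding and modification 6 rose and 12 fell (median -0.11). P3h2, a prolyl 3-hydroxylase, rose by 1.55 (SE 0.05, adjusted p = 3.43e-12) and P4ha1, a prolyl 4-hydroxylase subunit, by 0.43. The sister subunits P4ha2 and P4ha3 differed by -0.91 and -0.78, and the lysyl hydroxylase Plod2 by -1.005 (SE 0.04, adjusted p = 1.17e-10).

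Of 16 genes for propeptide removal and crosslinking 14 were measured, of which 3 rose and 10 fell (median -0.32). Bmp1, the main procollagen C-proteinase, rose by 0.72 (SE 0.04, adjusted p = 1.41e-09), while the related Tll1 differed by -1.63 and the enhancer Pcolce2 by -1.72 (SE 0.05, adjusted p = 2.59e-12). The crosslinking enzymes Loxl1 and Loxl4 differed by -1.04 and -1.03, both called lower. Of 10 receptors and uptake genes 5 rose and 5 fell (median -0.16). Itga10, a collagen-binding integrin chain, rose by 1.91 (SE 0.07, adjusted p = 1.73e-11) and Itga11 differed by -1.63 (SE 0.03, adjusted p = 1.23e-13). Mrc2, which takes up collagen, differed by -0.76. Gp6, known as a platelet collagen receptor, rose by 3.65 and was above background on 3 of 10 lacZ arrays.

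Of 16 partners of type IV collagen in basement membranes 7 rose and 8 fell (median 0.01). Nid2, a nidogen that links laminin to type IV collagen, rose by 4.84 (SE 0.04, adjusted p = 3.23e-17), and its relative Nid1 differed by -0.72 (adjusted p = 4.18e-09). The laminin chain Lama2 of muscle rose by 0.89 (SE 0.04, adjusted p = 6.88e-10), while Lama1 differed by -2.05 and Lama5 by -1.33. Pxdn, the peroxidase that crosslinks type IV collagen, rose by 0.62. Endothelial markers, whose cells also make basement membrane, passed as lower in 5 of 7 cases and did not pass in the other 2 (median -1.53), with a summed level of 3.06 to 3.89 in the day 14 lacZ and 2.63 to 2.72 in the day 14 MGT arrays. Of 7 smooth muscle and pericyte markers 3 rose and 2 fell (median 0.12), and of 6 epicardial and mesothelial markers 3 rose and 3 fell (median 0.33). Of 4 glial markers 2 rose and 1 fell (median 0.10), and of 6 macrophage markers 0 passed by limma and 0 had an unadjusted p under 0.05 (median 0.04).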

How the data were processed

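The deposited scanner files hold 1 array each as intensity (Cy3), background-subtracted by Feature Extraction 10.7.3.1 per the file headers. The normalized table, also intensity, was deposited by the authors, who name limma in the submitters' processing notes with no version; how it was further made is, in the sources used here, not given. No annotation of the probes' build (mm9) was used here, so exons are not stated.

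Control spots and scanner outliers were left out, each array's processed signal was divided by its 75th percentile, and log2 was taken. Spots of a probe were averaged, and a gene was read from its brightest probe among those well above background in both samples of some group. The test was limma 3.58.1 (R 4.3.3) on 11 group means over all 22 arrays, with 11 residual and 1.66 prior degrees of freedom and Benjamini-Hochberg adjustment over all genes tested. A gene below background on all arrays of a group has only a bound.

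The collagen genes, the gene lists and the tests were chosen with earlier results of these data known. Described singly were every measured fibrillar and basement membrane gene except Col11a2, and each FACIT or other gene called in the averaged comparison with a log2 difference of at least 0.5. Up to 3 further genes per direction in each other comparison, and up to 4 called genes per direction from each list, were added. The remaining genes, and Col11a2, which was not called, are named with a value only, so that all 40 are accounted for. The replicate numbers of the titles were not used as pairs in the main fit. The correlations of same-numbered deviations lay from -0.03 to 0.09, none over 0.1. Such correlations cannot exclude that same-numbered samples were prepared together. The fit was tested on simulated data (200 genes of 17923 changed). In the averaged comparison it found 78% of changes of 0.5, 91.5% of 1 and 98.5% of 2 (log2), with 8.77%, 5.18% and 6.64% false calls. In the day 7 comparison it found 41.5%, 71% and 92.5%. The simulated noise of a gene was independent and equally wide on every array, without a background floor. These rates therefore do not describe dim genes or arrays of uneven quality. Alternatives tried were normexp, another percentile, quantile normalization, the deposited table, other filters and probe rules, only the arrays compared, the replicate block, array quality weights, days within a slide and leaving out each array.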

Additional observations from a re-analysis of the deposited data

Results flagged for a closer look

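The difference between MGT and lacZ was not the same at day 3 and day 14 for 20 collagen genes, by the limma test of the change itself (adjusted p under 0.05). In log2 units the change was 4.06 for Col22a1, 2.89 for Col2a1, 2.60 for Col15a1, 2.58 for Col13a1, 2.53 for Col4a4 and 2.14 for Col4a3, so that MGT moved up against lacZ. Among fibrillar genes it was -1.96 for Col1a1, -0.91 for Col1a2, -1.44 for Col3a1, -0.69 for Col5a1, -1.42 for Col5a3 and -2.24 for Col24a1. Among FACIT genes it was -1.53 for Col9a1, -1.89 for Col12a1, -0.79 for Col14a1 and -1.76 for Col19a1, and among the others -1.38 for Col6a1, -0.96 for Col6a2, -4.02 for Col6a6 and -1.30 for Col8a2. For Col12a1, Col6a6, Col19a1 and Col24a1 the fitted fall means that the vectors came closer, since MGT lay above lacZ at day 3 in all 4. The fitted changes of Col6a6, Col19a1, Col24a1, Col22a1, Col13a1 and Col4a3 depend on signals below background. For Col8a2 and Col9a1 the value is that of 1 of 2 probes. Col1a1 and Col1a2 take their value from day 14, and Col1a2 gave -0.55 without the weak day 14 lacZ array. The days lay on different slides, and the part of the slide in these changes was not tested.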

How the results depend on the processing

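Of 774 recomputed counts of collagen genes 753 stayed within 1.5 times the value given above. With normexp, 7 genes were higher at day 14, and 6 lower in lacZ day 14 against day 0 and 5 against day 3. With the deposited values 8 changes were lower and 11 genes were higher in lacZ day 14 against day 3. With only probes above background on every array 24 collagen genes remain, of which higher were 6 averaged, 4, 3, 6, 6 and 5 on the 5 days in turn, and 1 for the change. By the same rule 5 were lower in lacZ day 14 against day 0 and 3 against day 3, and 9 were higher and 11 lower in MGT day 14 against day 3, where fewer genes were tested. With only the arrays compared, 11 were lower at day 14, and 10 were higher and 5 lower in lacZ day 14 against day 3. Array quality weights gave 7 higher at day 14 and 6 lower in lacZ day 14 against day 0.

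Leaving out each array in turn gave 15 to 16 higher and 19 to 20 lower (averaged), 8 to 10 higher and 7 to 9 lower (day 3), 8 to 10 higher and 11 to 15 lower (day 5), 12 to 16 higher and 13 to 14 lower (day 7), 13 to 15 higher and 13 to 16 lower (day 10), 9 to 11 higher and 14 to 19 lower (day 14), 5 to 7 higher and 13 to 17 lower (the change from day 3 to 14), 13 to 16 higher and 9 to 12 lower (lacZ day 3 against day 0), 19 to 21 higher and 9 to 12 lower (lacZ day 14 against day 0), 13 to 15 higher and 8 to 13 lower (MGT day 14 against day 0), 15 to 19 higher and 6 to 9 lower (lacZ day 14 against day 3), 12 to 14 higher and 13 to 17 lower (MGT day 14 against day 3). With the replicate block the averaged counts were 15 higher and 20 lower, and the block moved no count by over 1.5 times. Of 323 calls of collagen genes in the 12 comparisons, 100 were lost or turned under at least 1 alternative, 52 of them without 1 array.

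For the 33 genes described singly, 1119 of 1143 values of the averaged difference kept direction and call, 15 lost the call and 9 turned. Those that turned were Col4a1 and Col4a2 (0.060 and 0.058 with quantile normalization, 0.044 and 0.044 with the deposited table), Col8a2 (0.96 with the deposited table and 1.46 with the mean of its probes), Col2a1 (-0.096) and Col13a1 (-0.41) within slide 1, and Col1a1 (0.020) within slide 2. The cause was not tested. Signal near background limits the 15 genes not seen on every array, and 2 arrays a group limit the precision of all.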

Other observations

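Chains that the array lists under older names stood outside the naming rule. Col26a1 was lower with MGT in the averaged limma comparison (-1.35, SE 0.08, adjusted p = 5.94e-09), with 9 of 10 MGT arrays and 10 of 10 lacZ arrays above background. Col6a5, a further type VI chain, was also lower (-1.70, SE 0.11, adjusted p = 9.99e-09), with 0 of 10 MGT arrays and 2 of 10 lacZ arrays above background. Both of those lacZ arrays were of day 7, where the bound was at least 2.87-fold lower with MGT. Among the lacZ and MGT groups, Col6a5 passed as measured only through day 7 lacZ. This favoured a fall with MGT, so its p-value adds no support. Col6a4 did not pass (0.34, adjusted p = 0.186).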
